A study of Homo sapiens with 6 samples.

Results

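The 9 genes described here carry a death signal from the cell surface to the initiator caspases, or hold it back. They are the ligand TNFSF10 (TRAIL), the receptors FAS, TNFRSF10A and TNFRSF10B, the adaptors FADD and RIPK1, the proteases CASP8 and CASP10, and the caspase-8 homologue CFLAR. They were chosen by name, as the rows of the deposited count table whose Ensembl identifiers map to these symbols on the primary chromosomes. No measured value entered that rule, but the genes were chosen with earlier results of these data known. The table lists 63677 genes, of which 16926 had enough counts to be tested, and all 9 were among them. RNA-Seq libraries came from RPMI8226, an established human multiple myeloma (MM) cell line, that is, a line of malignant plasma cells, labelled as wild type. One group of cells received 100 nM GST-PTR1, in which the PTR1 domain of HAPLN1, a protein of the extracellular matrix, is joined to glutathione-S-transferase, and the other received 100 nM GST without that domain. Both recombinant proteins were given for 6 hr, and each group had 3 libraries of the 1 line. The labels number these as replicates, and the authors describe 3 biological replicates.

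A death receptor is a membrane protein of the TNF receptor superfamily with a death domain on its inner side. When its ligand clusters it, the adaptor FADD is recruited and brings in procaspase-8 and procaspase-10, which cleave one another and then switch on the executioner caspases. CFLAR encodes c-FLIP, which resembles caspase-8 but lacks its protease activity and competes for the same place in the complex. RIPK1 is a kinase that can join such complexes and takes part in NF-κB signaling as well as in cell death. Whether a cell dies depends on the proteins that assemble, which RNA counts do not measure. A count per gene also does not separate the long and the short forms of c-FLIP, or the membrane and the soluble forms of FAS.

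The deposited values are whole numbers of reads counted per gene. Library totals were 15202503, 20077280 and 23453473 counts with GST, and 22874133, 28837431 and 44688737 with GST-PTR1, and values of single libraries are given in this order throughout. Levels are given as RPKM, reads per kilobase of merged exons scaled to library size, with library sizes multiplied by TMM factors, which centre the typical gene at no change. Changes are log2 fold changes of GST-PTR1 against GST from the quasi-likelihood test in edgeR, with p-values adjusted by Benjamini-Hochberg over the 16926 genes and with the standard error (SE) or the 95% interval, and a gene was called at an adjusted p under 0.05. Over all genes tested the median log2 fold change was 0.0065 with this scaling and -0.19 when library totals were used instead. The summed RPKM of 6 plasma cell markers lay between 588 and 785 with GST and between 522 and 616 with GST-PTR1. Among these markers SDC1, TNFRSF17 and XBP1 fell, PRDM1 rose, and MZB1 and CD38 were not called, with log2 fold changes of -0.10 and 0.16. Markers of T cells, myeloid cells and stroma had few counts, with CD2, COL1A2 and DCN at 0 counts in all libraries. Those with more than 3 counts in some library were CD14 with 6 to 15, CSF1R with 2 to 14 and COL1A1 with 4 to 13. In RNA from whole cultures, fewer cells that express a gene and less of its RNA per cell cannot be told apart.

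Exposure to GST-PTR1 went with more RNA for the ligand TNFSF10, the receptor FAS, both initiator caspases and CFLAR. The largest of these changes were close to 4-fold, and those of the caspases were close to 2-fold. Neither adaptor was called, and neither was either of the receptors that bind TNFSF10. In numbers, 5 of the 9 genes were called higher, 0 were called lower and 4 were not called, where 9.15% of all genes tested were called higher and 11.4% were called lower. Counting only rises of 2-fold or more, 3 of the 9 were called, against 3.68% of all genes tested. The median log2 fold change of the 9 genes was 0.87. The lowest count of any of the 9 in any library was 207 and the highest was 12421.

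**Figure D1:**
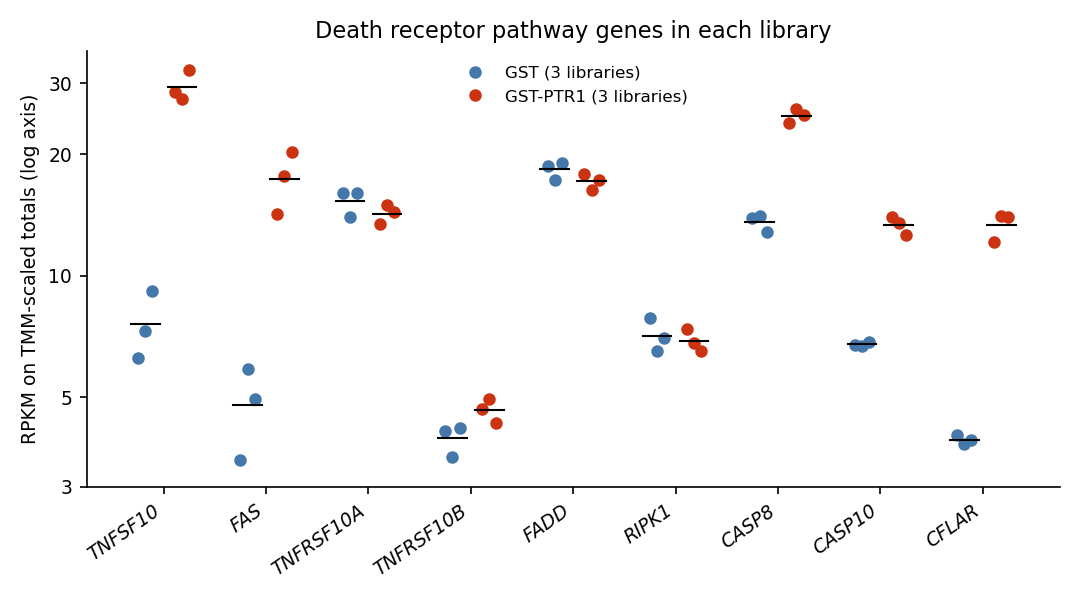
RPKM of the 9 genes (log axis) in each of the 3 GST libraries (blue) and 3 GST-PTR1 libraries (red), with horizontal lines for the mean of each group. For TNFSF10, FAS, CASP8, CASP10 and CFLAR all red points lie above all blue points by a wide margin, while the points of TNFRSF10A, FADD and RIPK1 overlap.

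TNFSF10 (ENSG00000121858, chromosome 3 of GRCh37 from 172223298 to 172241297, minus strand) encodes TRAIL, a ligand that can kill transformed cells through TNFRSF10A and TNFRSF10B. It stood at 6.26, 7.29 and 9.18 RPKM in the GST libraries and at 28.5, 27.5 and 32.3 RPKM in the GST-PTR1 libraries. Every GST-PTR1 library was at least 27.5 RPKM, well clear of the highest GST library. The mean rose from 7.58 ± 1.49 to 29.4 ± 2.53 RPKM (SD, n = 3 each). The log2 fold change was 1.95 (SE 0.14), that is 3.87-fold, with an adjusted p of 3.6e-06 in edgeR's quasi-likelihood test. This took TNFSF10 from the fourth highest RPKM of the 9 genes with GST to the highest with GST-PTR1.

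FAS (ENSG00000026103, chromosome 10 from 90750414 to 90775542, plus strand) is the receptor of FAS ligand. Its level was 3.49, 5.87 and 4.96 RPKM with GST and 14.2, 17.6 and 20.2 RPKM with GST-PTR1. The groups did not overlap, though the standard error of FAS was the largest of the 9 genes. The mean was 4.77 ± 1.20 RPKM with GST and 17.4 ± 3.03 RPKM with GST-PTR1, and the log2 fold change was 1.86 (SE 0.19, adjusted p = 5.1e-05 in edgeR's quasi-likelihood test). Of the exon bases of FAS, 12.1% lie opposite exons of ACTA2 on the other strand, and the counts are by strand. FASLG, the gene for its ligand, had 1 count over all 6 libraries, which is at the limit of detection.

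The TRAIL receptors gave a different picture from FAS. TNFRSF10A (DR4, ENSG00000104689, chromosome 8 from 23047965 to 23082639, minus strand) was at 16.0, 14.0 and 16.0 RPKM with GST and at 13.5, 14.9 and 14.4 RPKM with GST-PTR1. These values overlapped, and the log2 fold change of -0.11 had a 95% interval from -0.34 to 0.13 (adjusted p = 0.504 in edgeR's quasi-likelihood test). TNFRSF10B (DR5, ENSG00000120889, chromosome 8 from 22877646 to 22926692, minus strand) was at 4.13, 3.56 and 4.19 RPKM with GST and at 4.68, 4.95 and 4.33 RPKM with GST-PTR1. All 3 GST-PTR1 libraries were above all 3 GST libraries, by a small margin, and the log2 fold change of 0.23 had a 95% interval from -0.03 to 0.49 (adjusted p = 0.188 in edgeR's quasi-likelihood test). The upper ends of these intervals, 0.13 and 0.49, lie below the lower ends for FAS (1.44) and TNFSF10 (1.64). There was no overlap between the treatments in 6 of the 9 genes, namely TNFRSF10B and the 5 called higher, against 40.4% of all genes tested.

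Of the proteins that join the receptor complex, FADD (ENSG00000168040, chromosome 11 from 70049269 to 70053496, plus strand) is the adaptor between receptor and caspase. It was at 18.7, 17.3 and 19.0 RPKM with GST and at 17.8, 16.3 and 17.3 RPKM with GST-PTR1, so the groups overlapped. Its log2 fold change was -0.10 with a 95% interval from -0.33 to 0.13 (adjusted p = 0.534 in edgeR's quasi-likelihood test). More than any other of the 9 genes, FADD shares its exon bases with a gene on the opposite strand, 54.9% of them, and a stranded count keeps such reads apart only as well as the strand is kept. RIPK1 (ENSG00000137275, chromosome 6 from 3064225 to 3115421, plus strand) was at 7.84, 6.49 and 6.99 RPKM with GST and at 7.36, 6.81 and 6.51 RPKM with GST-PTR1. These groups overlapped as well, and the log2 fold change of -0.044 had a 95% interval from -0.30 to 0.21 (adjusted p = 0.814 in edgeR's quasi-likelihood test). The sign of the RIPK1 value was not settled, since it turned to 0.029 without the GST library of 15202503 counts and to 0.011 without the GST-PTR1 library of 44688737 counts.

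CASP8 (ENSG00000064012, chromosome 2 from 202098166 to 202152434, plus strand) encodes the main initiator caspase of this pathway. It was at 13.9, 14.0 and 12.8 RPKM with GST and at 23.9, 25.8 and 24.9 RPKM with GST-PTR1. Replicates lay close together and the groups were far apart, with means of 13.6 ± 0.653 and 24.9 ± 0.979 RPKM and a log2 fold change of 0.87 (SE 0.10, adjusted p = 9.4e-05 in edgeR's quasi-likelihood test). CASP10 (ENSG00000003400, chromosome 2 from 202047604 to 202094129, plus strand) encodes the related caspase-10, which mice lack. Its level was 6.72, 6.68 and 6.86 RPKM with GST and 14.0, 13.5 and 12.6 RPKM with GST-PTR1. Again no library of one group came near the other, and the log2 fold change was 0.99 (SE 0.09, adjusted p = 3.2e-05 in edgeR's quasi-likelihood test). The 95% intervals, from 0.66 to 1.08 for CASP8 and from 0.78 to 1.19 for CASP10, cover much the same range.

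CFLAR (ENSG00000003402, chromosome 2 from 201980827 to 202041410, plus strand), the gene for the inhibitor c-FLIP, had the smallest adjusted p of the 9 genes. It was at 4.03, 3.84 and 3.91 RPKM with GST and at 12.1, 14.1 and 14.0 RPKM with GST-PTR1. The GST libraries were almost level, and all GST-PTR1 libraries were higher. Means were 3.92 ± 0.0969 RPKM with GST and 13.4 ± 1.11 RPKM with GST-PTR1. The log2 fold change was 1.77 with a 95% interval from 1.54 to 2.00, or 3.41-fold (adjusted p = 7.1e-07 in edgeR's quasi-likelihood test). In counts, CFLAR went from 1512, 1826 and 2197 with GST to 6081, 8661 and 12421 with GST-PTR1. Its merged exons are 22528 bases long, so its RPKM is set low by that length beside genes of shorter exons, and the fold change does not depend on it. Only 1.98% of its exon bases are shared with another gene of the same strand. Another 10.0% lie opposite the antisense gene CFLAR-AS1, which had 0 counts in every library, and the pseudogene IMPDH1P10, which had a log2 fold change of -0.0035.

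**Figure D2:**
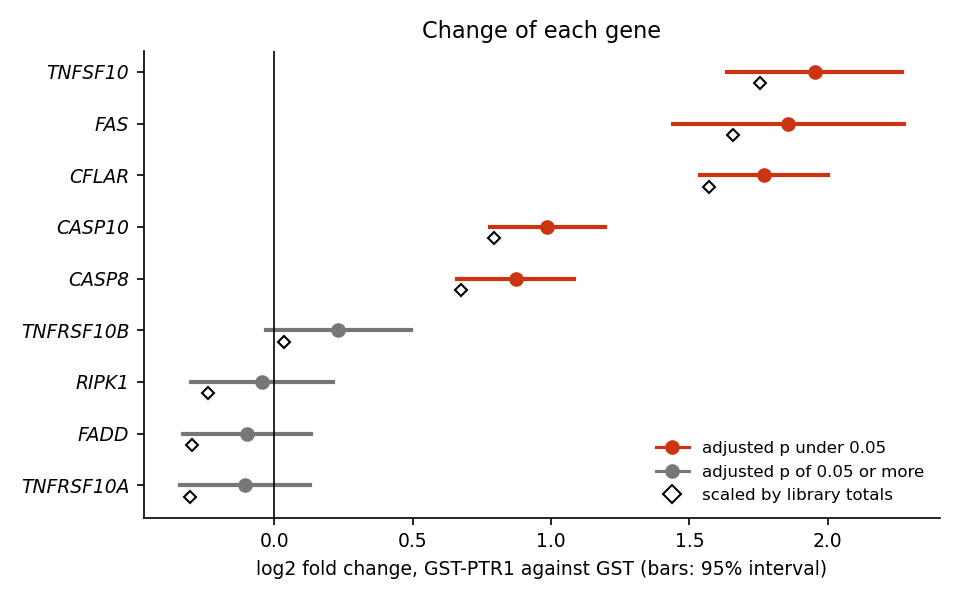
Log2 fold change of GST-PTR1 against GST for the 9 genes, with 95% intervals as bars. Red marks the genes called (adjusted p under 0.05, edgeR), grey the others, and open diamonds show the same value with libraries scaled by their totals. The diamonds lie to the left of the points, at 1.57 for CFLAR and -0.30 for TNFRSF10A, and the 5 genes in red stay above 0 under both scalings.

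Ordered by RPKM, the GST cells held most of FADD, followed by TNFRSF10A, CASP8, TNFSF10, RIPK1, CASP10, FAS, TNFRSF10B and CFLAR. Neighbours in that order whose libraries did not overlap were FADD and TNFRSF10A, CASP8 and TNFSF10, and CASP10 and FAS, while the other neighbours overlapped. With GST-PTR1 the order was TNFSF10, CASP8, FAS, FADD, TNFRSF10A, CASP10, CFLAR, RIPK1 and TNFRSF10B. There, TNFSF10 stood clear of CASP8, CASP8 of FAS, FADD of TNFRSF10A, CFLAR of RIPK1 and RIPK1 of TNFRSF10B. CFLAR moved from the lowest place to the level of CASP10, and FADD from the highest to the fourth. Levels between genes depend on the merged exon length that RPKM divides by, so these orders are of RPKM only.

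Ratios within a library do not depend on how the libraries are scaled, and 5 pairs were compared. The ratio of CFLAR to CASP8 RPKM was 0.289, 0.274 and 0.304 with GST and 0.507, 0.544 and 0.561 with GST-PTR1. All GST-PTR1 ratios were higher, and the mean of the log2 ratio differed by 0.89, which is a 1.86-fold higher ratio. For CFLAR to CASP10 the ratio was 0.599, 0.574 and 0.570 with GST and 0.865, 1.04 and 1.11 with GST-PTR1, again without overlap and with a log2 difference of 0.78. In contrast, the ratio of CASP10 to CASP8 overlapped between the groups, with means of 0.498 ± 0.0317 and 0.539 ± 0.0416 (SD, n = 3 each) and a log2 difference of 0.11. So CFLAR stood higher beside each caspase in every GST-PTR1 library than in any GST library.

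Among the receptors, the ratio of TNFRSF10A to TNFRSF10B was 3.87, 3.93 and 3.83 with GST and 2.88, 3.01 and 3.32 with GST-PTR1. The GST ratios were nearly equal and all GST-PTR1 ratios were lower, with a log2 difference of -0.34. The ratio of FAS to TNFRSF10B went from 1.23 ± 0.404 to 3.76 ± 0.839, a log2 difference of 1.65 without overlap. In the exact two-sided permutation test over libraries, p was 0.1 for the 4 pairs without overlap, which is the smallest that 3 libraries against 3 can give, and 0.3 for CASP10 to CASP8. Adjusted over the 5 pairs, these became 0.125 and 0.3 in the exact permutation test, so no pair could have reached 0.05 in this design.

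**Figure D3:**
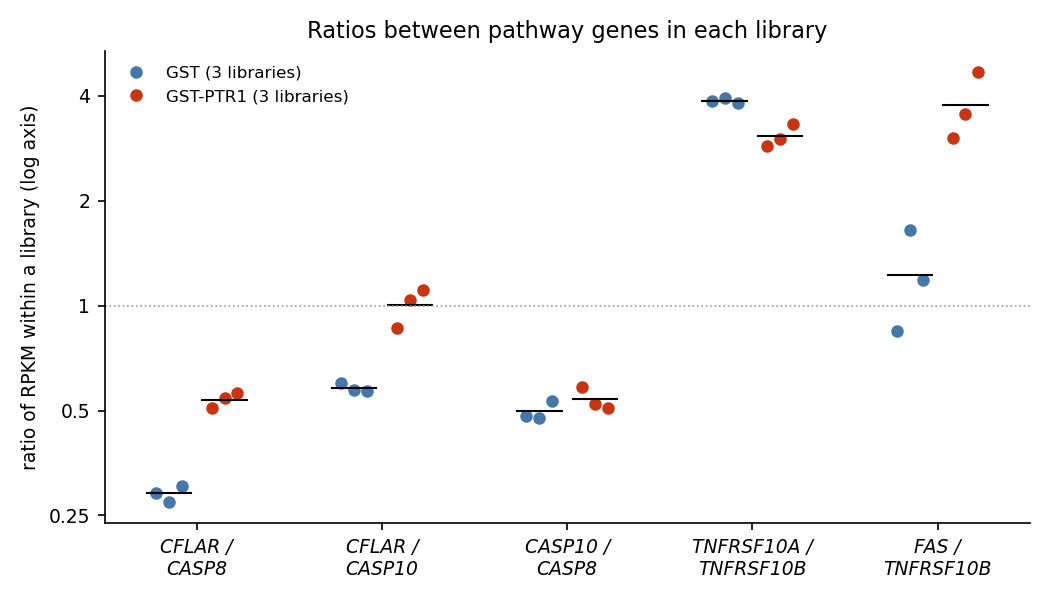
Ratio of the RPKM of one gene to that of another within each library (log axis), for 5 pairs, in the 3 GST libraries (blue) and the 3 GST-PTR1 libraries (red), with lines at the group means. The ratio of CFLAR to CASP8 goes from 0.289 to 0.537 on average without overlap, while that of CASP10 to CASP8 overlaps between the groups.

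CFLAR, CASP10 and CASP8 lie side by side and on the same strand. The stretch from the start of CFLAR to the end of CASP8 is 171.6 kb, with gaps of 6.19 kb between CFLAR and CASP10 and of 4.04 kb between CASP10 and CASP8. All 3 were called higher, so the genes around them were read for comparison. Within 250 kb on either side, the table holds 32 genes, of which 15 were tested, the 3 included. Of the other 12, 1 was called higher, 0 were called lower and 11 were not called, with a median log2 fold change of 0.17 and values from -0.31 to 0.68. Over all genes tested, 9.15% were called higher and 11.4% lower, so 1 call among 12 is near the general share. The gene called was HYCC2, which rose by 0.68 (SE 0.12, adjusted p = 0.0030 in edgeR's quasi-likelihood test), and its 3 GST-PTR1 libraries were above its GST libraries. Nearer to CFLAR, NDUFB3, a subunit of respiratory complex I, had a log2 fold change of 0.40 with an adjusted p of 0.162, and TRAK2, on the far side of CASP8, had -0.08 with an adjusted p of 0.629, both in edgeR's quasi-likelihood test. Within the span of CFLAR and on the other strand, the pseudogene RPL38P5 had 0.61 (adjusted p = 0.098 in edgeR's quasi-likelihood test). Its 95% interval ran from 0.08 to 1.14. IMPDH1P10, in the same span, had -0.0035.

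**Figure D4:**
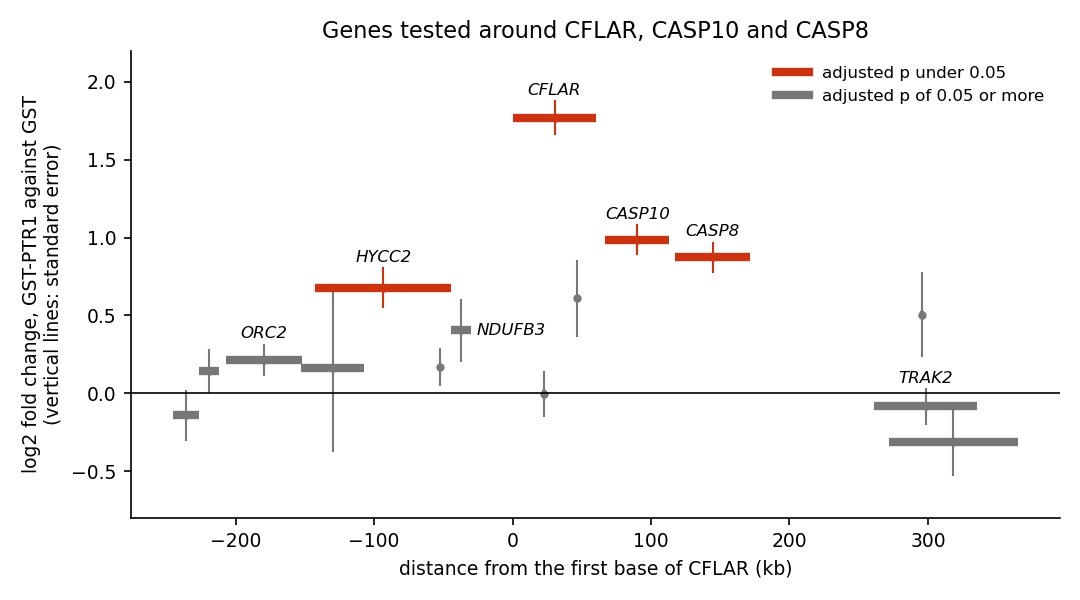
Log2 fold change of each tested gene within 250 kb of the stretch that holds CFLAR, CASP10 and CASP8, drawn from its start to its end as the distance from the first base of CFLAR (kb), with vertical lines for the standard error. Besides those 3 genes, which lie between 0.87 and 1.77, HYCC2 at 0.68 is the only one in red, that is, with an adjusted p under 0.05.

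As 5 of the 9 genes rose together, the 250 bases before their RefSeq starts (GRCh38.p14) were read for 3 motifs on both strands, the 10-base κB consensus, TTCNNNGAA as bound by STAT factors, and GAAANNGAA as in interferon response elements. Such windows were at hand for 6 of the 9 genes, 15 windows in all. The κB motif was found in 2 of the 15 windows, the STAT motif in 1 and the interferon motif in 4. Of all 35116 windows of this length, 9.96%, 6.57% and 6.88% hold these motifs, and since the counts are small and windows of 1 gene can overlap, no excess is read from them. The interferon motif was in windows of TNFSF10, CFLAR and RIPK1, and the last of these was not called. The STAT motif was in the first window of CASP8, 200 bases before the start. Of the 3 genes that rose most, 1 window each is shown, with the match in capitals, written 5′ to 3′ on the strand of the gene. For CFLAR and FAS, which have 4 and 3 windows, it is the only window with a κB match. The interferon match of CFLAR lies in another window, which is not shown.
CFLAR (first start, chr2:201118466-201118715, plus strand): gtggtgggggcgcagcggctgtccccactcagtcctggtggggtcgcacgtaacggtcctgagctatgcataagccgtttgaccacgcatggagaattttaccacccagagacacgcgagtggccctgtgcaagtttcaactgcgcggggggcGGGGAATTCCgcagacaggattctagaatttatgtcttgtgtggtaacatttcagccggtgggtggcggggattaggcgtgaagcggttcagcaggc
FAS (most downstream of 3 starts, chr10:88991181-88991430, plus strand): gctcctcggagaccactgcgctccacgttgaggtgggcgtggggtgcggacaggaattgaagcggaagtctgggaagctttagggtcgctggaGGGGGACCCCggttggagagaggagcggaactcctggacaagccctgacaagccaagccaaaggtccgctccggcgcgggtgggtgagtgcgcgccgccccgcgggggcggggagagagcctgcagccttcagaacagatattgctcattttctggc
TNFSF10 (chr3:172523431-172523680, minus strand): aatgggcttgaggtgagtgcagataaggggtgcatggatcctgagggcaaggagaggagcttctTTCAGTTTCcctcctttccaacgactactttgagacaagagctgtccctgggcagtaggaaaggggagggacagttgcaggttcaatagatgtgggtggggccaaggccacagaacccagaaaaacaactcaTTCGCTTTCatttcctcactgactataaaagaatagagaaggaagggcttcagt
In CFLAR the κB match begins 97 bases before its first start, and in FAS 157 bases before the most downstream of its 3 starts. The FAS match thus lies downstream of the other FAS starts, whose windows end at 88990797 and 88990913 and hold no κB match. The capitals in TNFSF10 are the interferon motif read on the other strand, 186 and 54 bases before the start. A match is a run of letters, and nothing here measured binding. FADD, not called, had none of the 3 motifs in its window.

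The other genes of the pathway were taken as 6 lists with 51 genes, of which 43 were tested. Of these, 15 were called higher, which is 34.9%, 5 were called lower, which is 11.6%, and 23 were not called. Their median log2 fold change was 0.15. The shares over all genes tested were 9.15% higher and 11.4% lower, and some genes of the lists, such as TNF, BIRC3 and TNFAIP3, are well-known targets of NF-κB. The lists were also chosen with earlier results of these data known, so no excess is read from these shares.

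Of the 4 other death ligands, 3 were tested and 3 were called higher, as TNFSF10 was. TNF, the ligand after which the family is named, had 7, 13 and 15 counts with GST and 234, 426 and 560 counts with GST-PTR1, with a log2 fold change of 4.59 (adjusted p = 3.0e-07 in edgeR's quasi-likelihood test). LTA, lymphotoxin-alpha, had 8, 8 and 6 counts with GST and 91, 142 and 204 counts with GST-PTR1, a log2 fold change of 3.76. TNFSF15 had 2, 5 and 16 counts with GST and 25, 41 and 55 with GST-PTR1, so the groups did not overlap in counts, though both were low. With GST, TNFSF10 was by RPKM far above all of these, since the summed RPKM of the 4 ligands of the list was at most 0.615 there and at most 12.5 with GST-PTR1.

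Of 9 other death-domain and decoy receptors, 4 were tested, 0 were called higher and 1 was called lower. TNFRSF21 (DR6) fell by 0.49 on the log2 scale (adjusted p = 0.0211 in edgeR's quasi-likelihood test). That call was lost without the GST library of 15202503 counts (-0.37), without the GST-PTR1 library of 28837431 counts (-0.51) and without that of 44688737 counts (-0.43). TNFRSF25 (DR3), the most abundant of the list, had a log2 fold change of 0.15 with TMM factors and -0.043 with library totals. The decoy receptor TNFRSF10D, which binds TNFSF10 but has no working death domain, had 0.26 (adjusted p = 0.340 in edgeR's quasi-likelihood test). TNFRSF10C, also a decoy for TNFSF10, had at most 3 counts in any library, and EDAR and TNFRSF6B had 0. Of the exon bases of TNFRSF6B, 100% are shared with RTEL1 and RTEL1-TNFRSF6B on the same strand. Reads there cannot be assigned to TNFRSF6B alone, so its 0 does not tell whether it was expressed. The other genes within 250 kb of TNFRSF10A and TNFRSF10B gave 7 tests, with 0 called higher and 1 called lower, RHOBTB2 at -0.88 (adjusted p = 0.0061 in edgeR's quasi-likelihood test).

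Of 9 other caspases, 8 were tested, 4 were called higher and 2 were called lower. CASP4 and CASP5, which sense bacterial lipopolysaccharide inside the cell, were among the rises. CASP4 had a log2 fold change of 0.74, and CASP5 had 0, 1 and 4 counts with GST and 24, 35 and 87 counts with GST-PTR1. The size of the CASP5 change is uncertain, with a log2 fold change of 4.22 and a 95% interval from 2.94 to 5.51. It ran from 3.80 to 5.64 as single libraries were left out. CASP9, the initiator of the mitochondrial route, and CASP2 fell by 0.49 and 0.44 on the log2 scale, with adjusted p of 0.0382 and 0.0197 in edgeR's quasi-likelihood test. These calls were fragile. That of CASP9 was lost without the GST library of 20077280 (-0.41) or 23453473 counts (-0.46), without the GST-PTR1 library of 22874133 (-0.39) or 28837431 counts (-0.47), and with all libraries thinned to the smallest total (-0.49). That of CASP2 was lost without the GST library of 23453473 counts (-0.44) and without the GST-PTR1 library of 22874133 (-0.42) or 44688737 counts (-0.35).

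Of 14 other adaptors and regulators of receptor complexes, 13 were tested, 5 were called higher and 0 were called lower. BIRC3 (cIAP2), a ubiquitin ligase that acts on RIPK1, went from 3.51 ± 0.389 to 53.4 ± 1.19 RPKM (SD, n = 3 each), with a log2 fold change of 3.92, and its close relative BIRC2 had 0.56. TNFAIP3 (A20) and CYLD, which remove ubiquitin chains in the same complexes, had log2 fold changes of 2.73 and 1.13. PEA15, a death effector domain protein that like c-FLIP can bind FADD and caspase-8, went from 19.5 ± 2.65 to 63.8 ± 4.65 RPKM, with a log2 fold change of 1.71. All 5 had an adjusted p of at most 0.00425 in edgeR's quasi-likelihood test. The other 8 tested genes of the list were not called, among them TRADD, an adaptor of TNF receptors, with a log2 fold change of 0.12, and TRAF2, which binds BIRC2 and BIRC3, with 0.10.

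Among 11 genes of the mitochondrial link and the executioners, all tested, 2 were called higher and 2 lower. BID, which caspase-8 cleaves to engage the mitochondria, rose by a log2 fold change of 0.91, and CYCS, cytochrome c, by 0.63. APAF1, which binds cytochrome c and activates caspase-9, fell by 0.77 on the log2 scale, and DFFB, the nuclease that cuts DNA between nucleosomes, fell by 0.62. PARP1, a substrate of the executioner caspases and the most abundant gene of the list, had a log2 fold change of 0.06 with TMM factors and -0.13 with library totals. For necroptosis, the form of cell death that RIPK1 can start when caspase-8 is inactive, 4 genes were tested, 1 was called higher and 0 were called lower. TICAM1, an adaptor of Toll-like receptors that binds RIPK1, rose by a log2 fold change of 1.22 (adjusted p = 4.8e-05 in edgeR's quasi-likelihood test). RIPK3, the partner kinase of RIPK1 in this route, had 31, 36 and 30 counts with GST and 12, 25 and 39 with GST-PTR1, a log2 fold change of -0.90 that just missed the threshold (adjusted p = 0.0513 in edgeR's quasi-likelihood test).

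**Figure D5:**
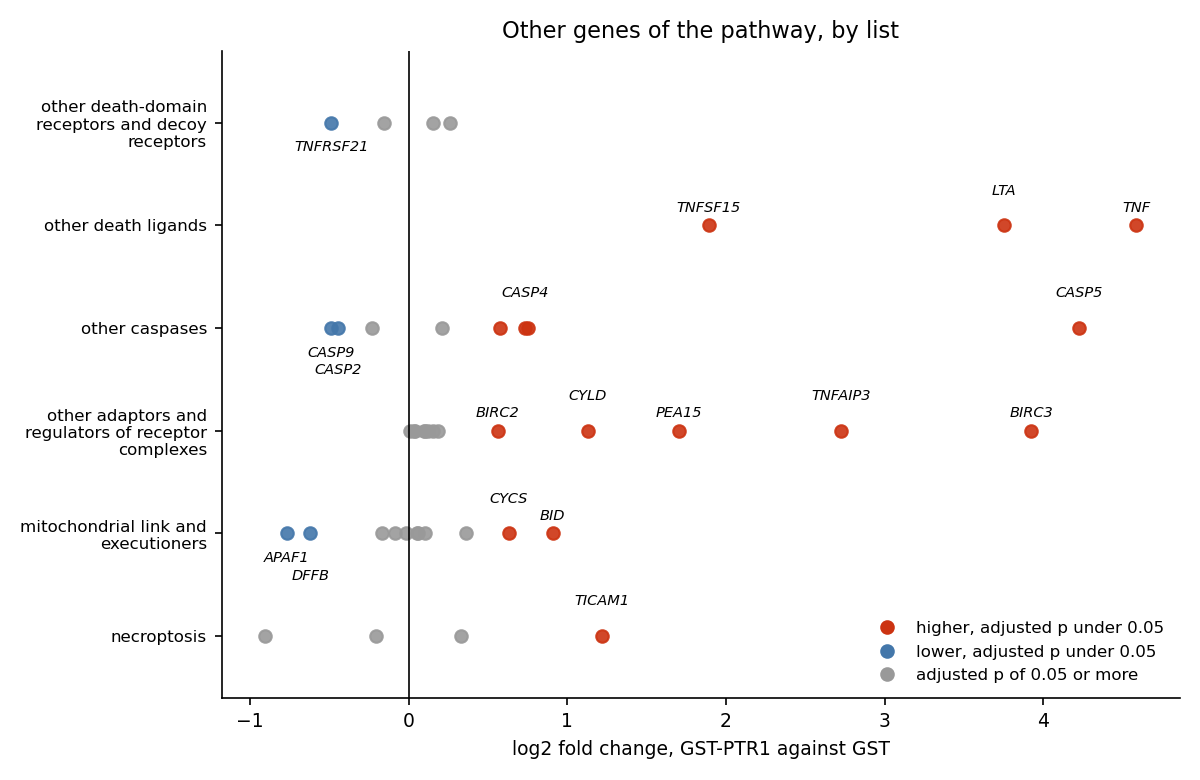
Log2 fold change of the 43 tested genes of 6 pathway lists (1 row per list), with red for genes called higher, blue for genes called lower and grey for the others, and names beside some of the called genes. The points furthest to the right are TNF at 4.59, CASP5 at 4.22 and BIRC3 at 3.92, and the furthest fall among called genes is that of APAF1 at -0.77. CASP5 had at most 4 counts in any GST library, and its 95% interval ran from 2.94 to 5.51.

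The genes whose profile over the 6 libraries lay nearest to that of CFLAR were sought among 13360 genes with a mean count of at least 50, by the Euclidean distance of log2 CPM centred on each gene's mean. In order of distance these were DUSP2 at 0.137, NFKB1 and VAV1 both at 0.169, IRF1 at 0.185 and ZNF506 at 0.198. DUSP2 is a phosphatase of MAP kinases, NFKB1 encodes the p105 precursor and p50 subunit of NF-κB, VAV1 is a guanine nucleotide exchange factor of blood cells, and IRF1 is a transcription factor of the interferon response. Their log2 fold changes lay between 1.69 for VAV1 and 1.86 for DUSP2, beside 1.77 for CFLAR. Genes picked by this distance have fold changes near that of CFLAR by construction. The distance rests on 2 treatments with 3 libraries each, and no test was made of it.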

How the data were processed

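RNA-Seq counts of 6 libraries were analysed, 3 per treatment. The authors made stranded libraries from total RNA and deposited whole-number counts per gene, which they made with featureCounts 1.5.0-p1 from the Ensembl 75 annotation of GRCh37, counting the reverse strand. The aligner is not given in the sources used here. Names were matched by Ensembl identifier for 52181 of 63677 genes, and the 5904 genes off the primary chromosomes have 0 counts. The numbers in the column names do not match the replicate numbers in the labels, so libraries were assigned to treatments only and are named by their total counts. No pair of libraries of a treatment held the same values.

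The test of counts was that of edgeR 4.0.16 in R 4.3.3 (TMM factors, filterByExpr, glmQLFit, glmQLFTest) and Benjamini-Hochberg adjustment over 16926 genes. The p-values of edgeR set the difference between treatments against the spread between these libraries of 1 cell line. That spread is estimated for each gene partly from the other genes. RPKM and CPM were computed from the counts, TMM-scaled totals and deposited exon lengths, and ratios of RPKM were compared by exact permutation over libraries. At most 3 counts in every library were taken as the limit of detection, which covers counting error only. Alternatives were library totals or the size factors of DESeq2 for TMM, DESeq2 1.42.0 or voom in limma 3.58.1 in place of edgeR's test, other filters on low counts, thinning, and leaving out each library. The gene-wise tests were first run on simulated data.

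The 9 genes and the lists were chosen with earlier results of these data known. Named are all 9 genes, of each list the 4 genes of smallest adjusted p among those called and the most abundant gene, called genes and nearest neighbours around the 9, and the 5 profiles nearest to the gene of smallest adjusted p. CASP2, CASP9, BIRC2, TRADD, TRAF2, RIPK3, TNFRSF10C, EDAR, TNFRSF6B, IMPDH1P10, RPL38P5, FAF1, CDKN2C, RNF11 and EPS15 were chosen after their values were seen. Values of some single genes of the lists are not reported here. Promoter windows are from RefSeq, GRCh38.p14. Figures were drawn with matplotlib 3.10.9.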

Additional observations from a re-analysis of the deposited data

How the results depend on the processing

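Under 15 alternatives, TNFSF10, FAS, CASP8, CASP10 and CFLAR stayed called higher in 15 of 15, and TNFRSF10A, TNFRSF10B, FADD and RIPK1 were called in 0. The log2 fold change of CFLAR ranged from 1.57 with library totals to 1.86, that of TNFSF10 from 1.75 to 2.12, FAS from 1.66 to 2.03, CASP8 from 0.68 to 0.92 and CASP10 from 0.79 to 1.04. Library totals shift all genes down and turned the split of calls from 1549 higher and 1937 lower to 927 and 3795. RIPK1 changed sign when libraries were left out (-0.10 to 0.029), and TNFRSF25 (-0.043) and PARP1 (-0.13) did with library totals. At a threshold of 2-fold, 3 of the 9 genes were called higher. Leaving out 1 library at a time gave 3 to 4 pathway genes called lower in place of 5, 0 to 1 of the other receptors and 0 to 2 of the other caspases. Thinning left 1 caspase called lower. No ligand of the list (0) had at least 10 counts in every library. For necroptosis, the count called lower became 2 with library totals and 1 with thinning, with the filter of at least 1 count in any library and with that of at least 10 in every library. The cause was not tested. The columns carry other numbers than the replicate labels, so samples share only a number. For the 4 libraries whose columns share a number, a fit with that number as a replicate block gave CFLAR 1.86 and 0 other receptors called lower, and the fit with no block also gave 0. It called 1603 genes higher and 1715 lower, against 1790 and 1848 with no block, and the pairs' deviations correlated at -0.03. Depth limits what can be said of genes at 3 counts or fewer, 6 of the 51 pathway genes, and for TNFRSF6B the shared exons do as well.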

Other observations

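FAF1, a FAS-associated factor in the list of adaptors (chromosome 1 from 50905150 to 51425935), had 1 count over all 6 libraries, where 3 counts would be between 0.0145 and 0.0342 RPKM. CDKN2C, which begins 0.482 kb beyond it, had 0 counts in every library. Further on that side, RNF11, 276 kb beyond FAF1, had 765 to 2798 counts and EPS15 had 682 to 1957 counts. FAF1 and CDKN2C were thus at the limit of detection in the GST and the GST-PTR1 libraries alike.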
